A study of Mus musculus with 12 samples.

Results

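The iron by dexamethasone interaction asks of each gene whether dexamethasone (DEX) changed its mRNA by the same factor in iron-loaded and in healthy mouse liver. It was read from all 12 of the 12 liver libraries of the series, which form 4 groups of 3 C57Bl/6J mice that the study's methods give as female. The mice received 300 mg/kg ferrous sulfate (FeSO4), a dose that overloads the liver with iron, or 0.9% NaCl intraperitoneally. After 6 h they received 10 mg/kg DEX, a synthetic glucocorticoid, or PBS, and the livers were taken 2 h later, 8 h after the first injection. The groups are named NaCl/PBS, NaCl/DEX, FeSO4/PBS and FeSO4/DEX. The interaction was computed per gene as the log2 fold change (LFC) after DEX in the FeSO4 mice minus the LFC after DEX in the NaCl mice, so a negative value marks a gene that rose less, or fell more, after DEX in iron-loaded liver. A gene was called at an edgeR false discovery rate (FDR) of 0.05 or less over all tested genes.

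The glucocorticoid receptor (GR, encoded by Nr3c1) is held in the cytoplasm by chaperones until a glucocorticoid binds it. It then enters the nucleus, where it activates genes from palindromic DNA elements and represses others, many of them driven by AP-1 and NF-kB. In liver it is known for inducing enzymes of amino acid breakdown and gluconeogenesis and for restraining inflammatory genes. Its activity in the cell is commonly read from the mRNA of a few strongly responding genes, among them Fkbp5, Tsc22d3, Sgk1 and Tat.

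The libraries held 16335651 to 23827340 counted reads (median 19602514), and 13857 of 55414 annotated genes had enough reads to be tested. The interaction is less precise than either DEX comparison, with a median standard error (SE) of 0.27 on the log2 scale against 0.19 for each, and the smallest interaction LFC that was called was 0.45 in size. Replicates varied most in the FeSO4/PBS group, where the median SD of log2 CPM was 0.21 over 9102 genes, against 0.12 to 0.15 in the other groups. One library of that group stood apart: the chi-square per gene was 89.5 and 71.4 between FeSO4/PBS mouse 1 and mice 2 and 3, and 18.3 to 37.0 for every other pair of replicates. Without that mouse the interaction calls came to 1018 (390 positive and 628 negative) in place of 857, the DEX calls to 2543 in place of 1892 in NaCl mice and to 0 in FeSO4 mice. All 9 hepatocyte markers (Alb, Ttr and others) were present. Their summed normalized counts were 2163000 to 2565000 in NaCl/PBS and 2558000 to 2956000 in NaCl/DEX. They were 2677000 to 3011000 in FeSO4/PBS and 3024000 to 3082000 in FeSO4/DEX. Summed Kupffer cell markers were 9063 to 11790 in the NaCl mice and 5015 to 7811 in the FeSO4 mice, with the PBS and DEX mice of each overlapping. Summed neutrophil markers were 122 to 308 in NaCl/PBS and 86.6 to 129.8 in NaCl/DEX, against 815 to 969 in FeSO4/PBS and 605 to 731 in FeSO4/DEX, so that after DEX they were wholly lower in the FeSO4 mice and overlapped in the NaCl mice. Of 8 pancreatic acinar markers, 6 (Amy2a5, Cpa1, Ctrb1, Pnlip, Prss2 and Try4) were at 0 in all mice. In bulk liver, fewer cells of a type and less RNA per cell cannot be told apart.

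Across all tested genes, 857 were called in the interaction, which is 6.18% of 13857, and 2830 (20.4%) had an unadjusted p under 0.05. Of the called genes, 443 (3.2%) had a negative and 414 (2.99%) a positive interaction LFC, and 277 (2.0%) and 297 (2.14%) lay beyond an LFC of 1 in size. In the NaCl mice, DEX upregulated 901 genes (6.5%) and downregulated 991 (7.15%), together 13.7%. In the FeSO4 mice 0 genes were called by edgeR, with 900 (6.49%) at an unadjusted p under 0.05, and 10 by DESeq2; 170 were called when genes with few reads were kept. Scaling by library size alone moved the median interaction LFC of all genes from 0.02 to 0.15 and the share of positive calls from 48.3% of 857 to 63.7% of 902, so directions are given relative to the TMM-scaled median. Leaving out NaCl/PBS mouse 1 or 3 lowered the count of calls to 537 and 545, the positive calls to 229 and 237, and the DEX calls in NaCl mice to 1187 and 1192. The positive calls also fell to 235 without FeSO4/DEX mouse 3 and to 268, 267 and 260 without NaCl/DEX mice 1, 2 and 3.

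The negative interactions mostly belonged to genes that rose after DEX in healthy liver. Over the 443 genes, the median LFC after DEX was 1.11 in NaCl mice and -0.08 in FeSO4 mice. All NaCl/DEX mice lay above all NaCl/PBS mice in 439 of them (17.6% of all tested genes do so). FeSO4/DEX and FeSO4/PBS mice overlapped in 363 (81.9%), beside 90.7% of all tested genes. FeSO4/DEX lay above in 12 and below in 68 (4.45% and 4.85% of all tested genes). FeSO4 without DEX lay above NaCl/PBS in 335 of the 443 and below it in 32 (29.0% and 31.0% of all tested genes), with a median LFC of 1.05. Compared with NaCl/DEX, the FeSO4/PBS mice were higher in 156, lower in 178 and overlapping in 109 (3656, 3609 and 6592 of all tested genes). These counts use the same mice as the interaction and so partly follow from the choice of the genes.

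The positive interactions showed the opposite pattern. Over the 414 genes, the median LFC after DEX was -1.07 in NaCl mice and 0.24 in FeSO4 mice, and FeSO4 without DEX had a median LFC of -1.11. NaCl/DEX lay wholly below NaCl/PBS in 406 (20.3% of all tested genes). FeSO4/DEX overlapped FeSO4/PBS in 303, lay above it in 98 and below it in 13 (90.7%, 4.45% and 4.85% of all tested genes). The FeSO4/PBS mice were wholly under the NaCl/PBS mice in 299 of the 414, and wholly over them in 42 (31.0% and 29.0% of all tested genes). As for the negative interactions, these counts partly follow from the choice of the genes. Without FeSO4/PBS mouse 1 the FeSO4 groups overlapped in 317 of the 443 negative and 268 of the 414 positive interactions, beside 79.3% of all tested genes. Long noncoding RNAs made up 27 of the positive calls (6.52%) and 10 of the negative calls (2.26%), beside 5.14% of all tested genes.

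**Figure D1:**
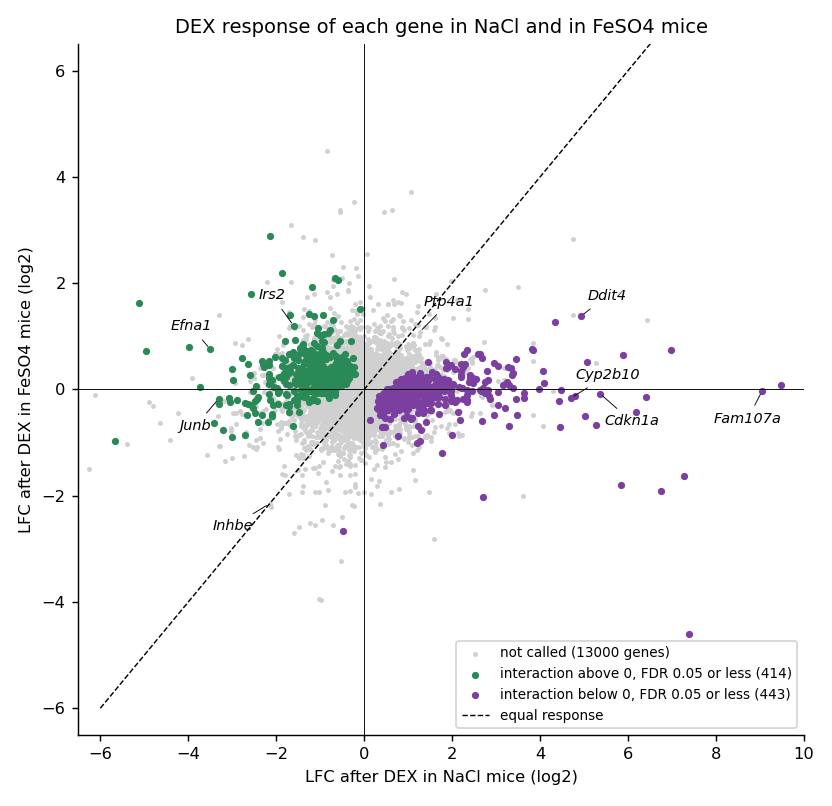
The LFC after DEX in NaCl mice (horizontal axis, log2) against the LFC after DEX in FeSO4 mice (vertical axis, log2) for the tested genes, with the 443 negative and 414 positive interactions coloured and 1 gene, not called, outside the axes. The called genes spread along the horizontal axis and lie mostly near 0 on the vertical axis, with median LFCs in FeSO4 mice of -0.08 and 0.24.

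The classic GR targets held the highest share of called genes among the lists. Of 30 listed and tested classic GR targets, 15 (50%) had a negative interaction and 0 a positive one, beside 3.2% and 2.99% of all tested genes. The list names known GR targets and was written with earlier results of these data known, so its direction is not independent evidence. The median interaction LFC of the list was -1.42, with a median LFC after DEX of 1.40 in NaCl mice, where 25 of 30 rose, and of 0.09 in FeSO4 mice. The 15 were Fam107a, Cdkn1a, Rgcc, Ddit4, Gadd45b, Lcn2, Fkbp5, Lpin1, Tat, Dusp1, Sgk1, Tsc22d3, Tdo2, Cebpb and Nfkbia. The list's median level per mouse, on the log2 scale against the NaCl/PBS mean, was -0.34, 0.28 and -0.09 in NaCl/PBS, 1.40, 1.48 and 1.36 in NaCl/DEX. It stood at 1.87, 1.92 and 1.88 in FeSO4/PBS and at 2.05, 2.16 and 1.87 in FeSO4/DEX. NaCl/PBS mouse 2 was the highest of its group for 19 of the 30 genes and mouse 1 the lowest for 22. The number called with 1 mouse left out ran from 13 to 20, the highest without NaCl/PBS mouse 2, and no positive call appeared in any of these fits.

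Fam107a (ENSMUSG00000021750, chromosome 14 from 14151750 to 14173507 on GRCm39), an actin-associated stress gene, had a strongly negative interaction. Its normalized counts were 0, 1.87 and 4.23 in NaCl/PBS, 1149.6, 1156 and 948 in NaCl/DEX, compared with 28.2, 44.8 and 28.1 in FeSO4/PBS and 24.2, 25.8 and 49.9 in FeSO4/DEX. The FeSO4 groups overlapped each other and lay between the NaCl groups. The LFC after DEX was 9.04 (edgeR FDR 2.1e-08) in NaCl mice and -0.03 (edgeR FDR 0.99) in FeSO4 mice, and the interaction LFC was -9.08 (SE 0.57, edgeR FDR 1.8e-06). The NaCl/PBS libraries held at most 5 reads of Fam107a, so the size of these folds is uncertain. With 1 mouse left out the interaction LFC ran from -10.2 to -8.44.

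Cdkn1a (ENSMUSG00000023067, chromosome 17 from 29309936 to 29319701), which encodes the cell cycle inhibitor p21, likewise had no called response to DEX in FeSO4 mice, but from a high level. The NaCl/PBS mice had 39.6, 77.6 and 53.3 normalized counts and the NaCl/DEX mice 2020.2, 2765 and 2147. Without DEX the FeSO4 mice already had 9851, 8603 and 9167, and with DEX 8435, 9544 and 8176. All 6 FeSO4 mice stood above the NaCl/DEX mice, and the interaction LFC was -5.44 (SE 0.27, edgeR FDR 1.6e-07).

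Fkbp5, a co-chaperone that lowers the receptor's affinity for hormone, rose after DEX in NaCl mice. Normalized counts went from 1341, 3654 and 1481 in NaCl/PBS to 9723, 10944 and 9940.4 in NaCl/DEX, and were 3679, 4122 and 4175 in FeSO4/PBS and 3479.8, 3020.4 and 4004 in FeSO4/DEX (interaction LFC -2.43, SE 0.40, edgeR FDR 0.0026). Tsc22d3, which encodes the anti-inflammatory protein GILZ, lay lower in both FeSO4 groups than in NaCl/PBS. It had 995, 1136 and 1699 normalized counts in NaCl/PBS, 4330.2, 3823 and 4089.7 in NaCl/DEX, beside 351, 371 and 330.3 in FeSO4/PBS and 407, 358 and 478 in FeSO4/DEX (interaction LFC -1.44, SE 0.24, edgeR FDR 0.0032). Sgk1, a kinase that regulates ion transport, rose from 367, 445 and 591 to 2029, 2112 and 2250.2 after DEX in NaCl mice and had 781, 1224 and 1326 without and 1979.6, 1142 and 1493 with DEX in FeSO4 mice (interaction LFC -1.72, SE 0.32, edgeR FDR 0.0056). For all 3 genes the FeSO4/DEX and FeSO4/PBS mice overlapped, and the FeSO4/PBS mice were below the NaCl/DEX mice.

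Tat, tyrosine aminotransferase, overlapped between FeSO4 mice without DEX and NaCl mice with DEX. Its normalized counts were 17656, 19125 and 22702 in NaCl/PBS and 103190, 87816 and 87952 in NaCl/DEX, against 119070, 124470 and 87754 in FeSO4/PBS and 86789, 140300 and 112100 in FeSO4/DEX. The last 3 groups overlapped, and the interaction LFC was -2.20 (SE 0.26, edgeR FDR 2.5e-04). Ddit4, an inhibitor of mTORC1, was one of the 12 negative calls whose FeSO4/DEX mice (1612, 3196 and 2278) all exceeded the FeSO4/PBS mice (875, 1138 and 708). Its LFC after DEX was 1.38 (edgeR FDR 0.18) in FeSO4 mice and 4.93 (edgeR FDR 3.7e-08) in NaCl mice, with an interaction LFC of -3.55 (SE 0.31, edgeR FDR 1.9e-05). Gadd45b, a growth arrest gene, was another, with 383, 2521 and 1908 in FeSO4/PBS and 3358, 4090.2 and 4188 in FeSO4/DEX. Its interaction LFC was -3.07 (SE 0.66, edgeR FDR 0.013), but the difference turned its sign on the linear scale, where the group means rose by 1166 normalized counts more after DEX in FeSO4 than in NaCl mice.

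**Figure D2:**
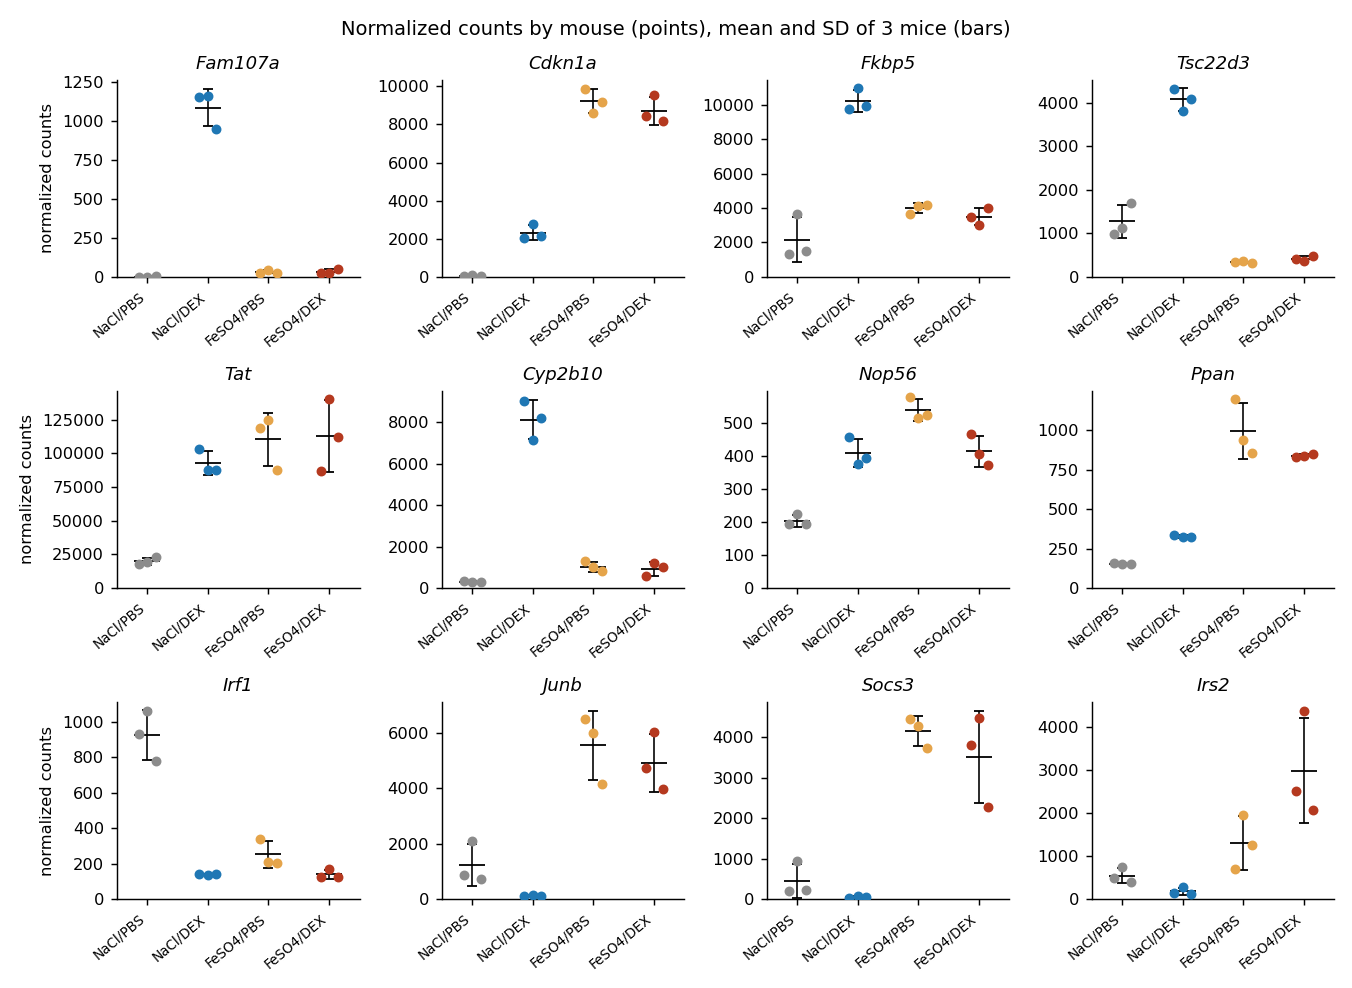
Normalized counts (linear axes from 0) of 12 genes in each of the 12 mice, with the mean and SD of each group of 3. Fam107a, Fkbp5, Tsc22d3 and Cyp2b10 peak in NaCl/DEX, and Cdkn1a stands higher in both FeSO4 groups. Irf1 lies lower after DEX in NaCl mice and, by a smaller factor, in FeSO4 mice (interaction LFC 1.87).

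The receptor itself was not called. Nr3c1 had 2097, 1727 and 1912 normalized counts in NaCl/PBS, 1646, 1368 and 1518 in NaCl/DEX, against 796, 1218 and 1083 in FeSO4/PBS and 1247, 1049 and 1228 in FeSO4/DEX, and its interaction LFC was 0.53 (SE 0.21, edgeR FDR 0.16). The FeSO4/PBS values were each lower than any NaCl/PBS value. Of 22 genes for the receptor, its chaperones, cofactors and steroid metabolism, 3 had a negative interaction: Fkbp5, the histone acetyltransferase gene Ep300 at -0.98 (SE 0.22, edgeR FDR 0.017) and the Mediator subunit gene Med1 at -0.70 (SE 0.16, edgeR FDR 0.017). Med1 was not called with library size alone (edgeR FDR 0.069). The list's median was 0.02, and 3.2% of all tested genes had a negative interaction.

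The promoters of the named genes were searched for the palindrome to which GR binds, since the named negative interactions are mostly genes that DEX induced in healthy liver. The letters searched were GNACA and TGTNC separated by 3 bases of any kind, a motif that is its own reverse complement, in the bases just upstream of the 5′ end of each gene in the GENCODE vM39 annotation on GRCm39. The 2 sequences below are 300-base windows of named genes with a match, printed 5′ to 3′ on the gene's strand with the match in capitals. They belong to Slc10a6, a steroid sulfate transporter (chr5:103777402-103777701, minus strand), and Lcn2, the siderophore-binding lipocalin (chr2:32278265-32278564, minus strand).
Slc10a6: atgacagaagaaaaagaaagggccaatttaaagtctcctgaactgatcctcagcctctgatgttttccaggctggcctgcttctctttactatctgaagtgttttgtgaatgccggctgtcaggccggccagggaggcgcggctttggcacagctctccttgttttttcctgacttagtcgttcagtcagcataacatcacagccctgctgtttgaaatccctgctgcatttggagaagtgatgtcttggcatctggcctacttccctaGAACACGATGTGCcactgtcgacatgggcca
Lcn2: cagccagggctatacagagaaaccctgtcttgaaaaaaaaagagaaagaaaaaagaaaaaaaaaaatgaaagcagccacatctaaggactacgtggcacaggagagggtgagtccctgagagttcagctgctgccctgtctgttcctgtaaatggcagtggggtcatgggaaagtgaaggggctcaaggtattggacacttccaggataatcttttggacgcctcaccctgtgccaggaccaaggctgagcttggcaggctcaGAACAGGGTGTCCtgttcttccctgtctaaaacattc
The first letter of the match lay 31 and 37 bases before the gene start. Of 13817 tested genes with a window, 52 (0.376%) held the letters within 300 bases and 235 (1.70%) within 1000 bases. Among the 443 negative interactions the numbers were 4 (0.903%) and 18 (4.06%), and among 412 positive ones with a window 1 (0.243%) and 10 (2.43%). Fkbp5, Spata2l, Stat2 and Irf1 had a match between 300 and 1000 bases. A match describes letters in a window and is not a bound site.

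Slc10a6 had 0.719, 7.48 and 0.846 normalized counts in NaCl/PBS, 21.5, 38.5 and 24.2 in NaCl/DEX, compared with 396, 195 and 379 in FeSO4/PBS and 226, 231 and 144 in FeSO4/DEX. The FeSO4 groups overlapped each other and lay above NaCl/DEX, and the interaction LFC was -3.98 (SE 0.71, edgeR FDR 0.0044). The NaCl/PBS libraries held at most 8 reads of Slc10a6, and with 1 mouse left out the interaction LFC ran from -5.68 to -3.48. Lcn2 had the same order of groups. It rose from 1124, 3126 and 858 to 8331, 7432 and 4457 after DEX in NaCl mice and had 44701, 13900 and 16689 without and 15573, 15424 and 10681 with DEX in FeSO4 mice (interaction LFC -2.84, SE 0.67, edgeR FDR 0.023). Its call ended, with the edgeR FDR in parentheses, without FeSO4/DEX mouse 3 (0.063), NaCl/DEX mouse 1 (0.056) or NaCl/PBS mice 1 (0.065) or 3 (0.054). Serpina3m, a serine protease inhibitor gene, belongs to a cluster of near-identical paralogs, so reads may be split among them. Its interaction LFC was -1.01 (SE 0.23, edgeR FDR 0.018), and the call ended without NaCl/PBS mouse 1 (0.052).

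Among the remaining strongly negative interactions, several genes were highest in the NaCl/DEX mice. Mdm1, a centriole protein gene, had 806, 448 and 352 normalized counts in NaCl/DEX against 24.5, 50.5 and 27.9 in NaCl/PBS, 14.1, 37.6 and 30.6 in FeSO4/PBS and 14.5, 21.7 and 47.6 in FeSO4/DEX (interaction LFC -3.97, SE 0.67, edgeR FDR 0.0031). Akr1b7, an aldose reductase, had 470.2, 337 and 461 in NaCl/DEX and group means of 34.2 ± 6.11, 80.1 ± 46.5 and 74.1 ± 41.8 (SD, n = 3) in NaCl/PBS, FeSO4/PBS and FeSO4/DEX (interaction LFC -3.79, SE 0.60, edgeR FDR 0.0020). All NaCl/DEX mice lay above all other mice in both genes, and the FeSO4 groups overlapped.

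The neighbours Phf11c and Setdb2 lie 4896 bases apart on the minus strand of chromosome 14, and their interaction LFCs were -4.48 (SE 0.69, edgeR FDR 0.0017) and -3.64 (SE 0.59, edgeR FDR 0.0022). Setdb2, a histone lysine methyltransferase gene, had 322 ± 93.0 (SD, n = 3) normalized counts in NaCl/PBS, 3526 ± 549 in NaCl/DEX, beside 861 ± 535 in FeSO4/PBS and 755 ± 229 in FeSO4/DEX. Phf11c has close paralogs, and its reads are uncertain for that reason. Greb1, an estrogen-responsive gene, lies 16702 bases from Lpin1 on chromosome 12. It was at or under 3 reads in every NaCl/PBS and FeSO4/DEX library and had 190.0, 58.3 and 62.4 normalized counts in NaCl/DEX, at least 41.4-fold above NaCl/PBS with the floor set at 3 reads per library. Without NaCl/DEX mouse 1 the bound was 24.1-fold. Its interaction (edgeR FDR 0.042) was not called without FeSO4/DEX mice 1 (0.082), 2 (0.057) or 3 (0.081), FeSO4/PBS mouse 1 (0.98) or NaCl/PBS mice 1 (0.078) or 3 (0.078) or with limma voom (FDR 0.083), and no interaction LFC is given for it, since a fitted value against groups at the floor is no fold. Serpina4-ps1, a pseudogene whose reads are uncertain, had an interaction LFC of -5.17 (SE 1.23, edgeR FDR 0.023), which was not called without FeSO4/DEX mouse 3 (0.064), NaCl/DEX mouse 2 (0.055) or NaCl/PBS mouse 3 (0.060) or with limma voom (FDR 0.099).

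Genes of ribosome biogenesis formed the largest group of negative interactions among the listed functions. These genes make and assemble ribosomal subunits in the nucleolus. Of 60 tested, 24 (40%) had a negative and 0 a positive interaction, beside 3.2% and 2.99% of all tested genes. The list holds genes that the study names among those shared by FeSO4 and DEX in these samples, so its direction is not independent evidence. Its median LFC was 0.43 after DEX in NaCl mice, where 30 of 60 rose, -0.18 after DEX in FeSO4 mice and 1.48 for FeSO4 without DEX. For the 24 called genes, the LFC after DEX was 0.41 to 1.33 in NaCl mice and -0.44 to -0.05 in FeSO4 mice. They were called on the difference of these LFCs, so the opposite signs partly follow from the choice.

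Nop56, a core protein of box C/D snoRNPs, had 194, 224 and 193 normalized counts in NaCl/PBS, 457, 376 and 393 in NaCl/DEX, against 578, 516 and 524 in FeSO4/PBS and 466, 405 and 373 in FeSO4/DEX. Here the FeSO4/DEX mice all lay below the FeSO4/PBS mice, and the interaction LFC was -1.38 (SE 0.18, edgeR FDR 4.9e-04). Ppan, a factor of large subunit assembly, rose from 158, 153 and 154 to 336, 324 and 321 in NaCl mice and had 1196, 936 and 856 without and 831, 836 and 847 with DEX in FeSO4 mice (interaction LFC -1.33, SE 0.17, edgeR FDR 4.9e-04). Mphosph10 and Mak16, of the small and large subunit, had interaction LFCs of -1.33 (SE 0.16, edgeR FDR 2.3e-04) and -1.22 (SE 0.14, edgeR FDR 2.5e-04). In all 4 genes the FeSO4/PBS mice were above the NaCl/DEX mice and FeSO4/DEX lay wholly below FeSO4/PBS (4.85% of all tested genes). The 4 were chosen by the smallest interaction p, so this separation partly follows from the choice. The LFCs after DEX in FeSO4 mice, -0.38 for Nop56 and -0.25 for Ppan, were not called (edgeR FDR 0.71 and 0.76). Other called members included Nolc1 at -1.76, Nop58 at -1.41, Nop2 at -1.26 and the RNA polymerase I factor Rrn3 at -0.90. With 1 mouse left out, 18 to 25 members were called, the lowest without NaCl/PBS mouse 1.

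**Figure D3:**
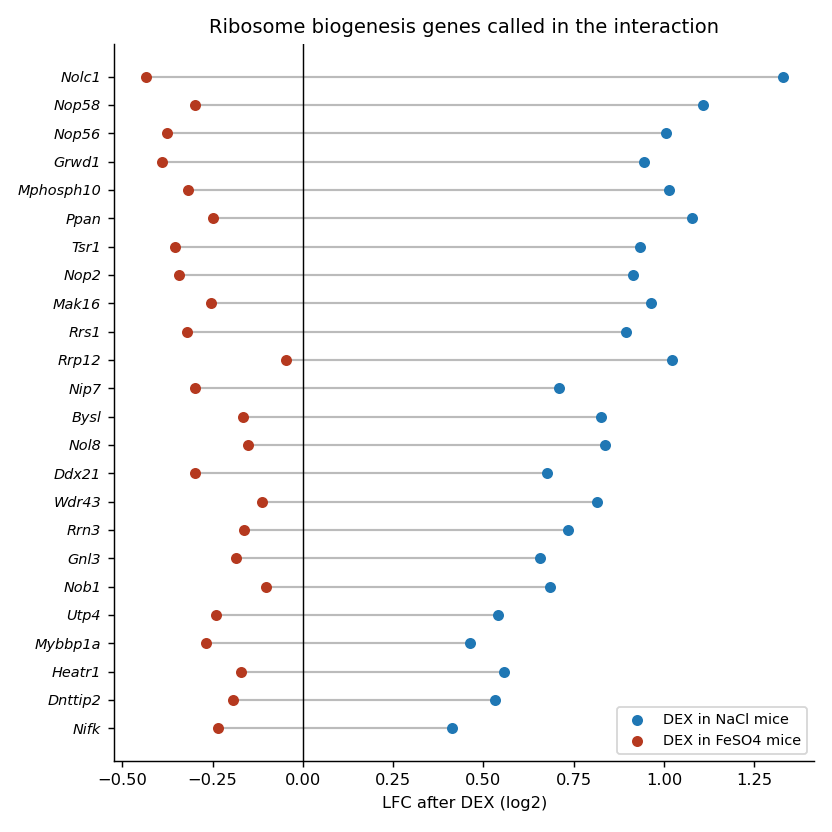
LFC after DEX (horizontal axis, log2) in NaCl and in FeSO4 mice for the 24 ribosome biogenesis genes with a called interaction. All 24 lie above 0 in NaCl mice (0.41 to 1.33) and below 0 in FeSO4 mice (-0.44 to -0.05). The genes were chosen by the difference of these LFCs, so the split partly follows from the choice.

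Lists for neighbouring steps of gene expression held smaller shares of calls, beside 3.2% negative and 2.99% positive over all tested genes. Of 52 translation initiation factor genes, 5 had a negative interaction and 0 a positive one: Eif4ebp3 at -2.23, Eif1a at -1.35, Eif4ebp1 at -0.70, Eif3b at -0.64 and Eif4e at -0.51. The count was 1 without FeSO4/DEX mouse 3 or NaCl/DEX mice 1 or 2 or NaCl/PBS mouse 1, 2 without FeSO4/DEX mouse 1 or NaCl/DEX mouse 3 or NaCl/PBS mouse 3 and came to 3 without FeSO4/DEX mouse 2 or NaCl/PBS mouse 2. It was 8 by DESeq2 and 2 both with library size alone and with the replicate block. Of 30 SR and hnRNP splicing factor genes, 4 did (Srsf7, Srsf6, Srsf10 and Srsf4, -0.71 to -0.61), with 9 by DESeq2 and 2 with library size alone. Of 25 snoRNA host and named long noncoding RNAs, 3 did: Snhg3 at -2.44, Snhg1 at -1.64 and Snhg15 at -1.24, with 6 by DESeq2. With edgeR, 0 of 79 cytosolic ribosomal protein genes, 77 mitochondrial ribosomal protein genes and 20 aminoacyl-tRNA synthetase genes were called, with list medians of -0.28, -0.08 and -0.27. An unadjusted p under 0.05 was found for 16, 3 and 6 of them, DESeq2 called 2, 0 and 1, and limma voom called none of these genes.

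Genes of hepatic fuel handling were split. Of 20 genes of gluconeogenesis and its regulators, 5 (25.0%) had a negative and 0 a positive interaction, beside 3.2% and 2.99% of all tested genes. The list median was -0.43. Sdsl, a serine dehydratase-like enzyme, had 131, 156 and 126 normalized counts in NaCl/PBS, 292, 346 and 346 in NaCl/DEX, compared with 669, 491 and 536 in FeSO4/PBS and 351, 575 and 405 in FeSO4/DEX, so the FeSO4/PBS mice stood above NaCl/DEX (interaction LFC -1.61, SE 0.26, edgeR FDR 0.0021). Foxo1, a transcription factor that drives gluconeogenic genes and is switched off by insulin, rose from 648 ± 52.3 (SD, n = 3) to 1500.2 ± 18.4 in NaCl mice and had 2309 ± 405 and 2629.6 ± 281 in FeSO4 mice without and with DEX (interaction LFC -1.02, SE 0.19, edgeR FDR 0.0052).

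Foxo3, its relative, had an interaction LFC of -1.0 (SE 0.25, edgeR FDR 0.028), with both FeSO4 groups below NaCl/PBS, and Gpt2, an alanine aminotransferase, one of -0.69. Got1, aspartate aminotransferase, had -1.31 (SE 0.35, edgeR FDR 0.040). The count of the gluconeogenesis list was 2 without FeSO4/DEX mouse 1 or NaCl/DEX mouse 1 or NaCl/PBS mice 1 or 2 and came to 3 without FeSO4/PBS mouse 2 or NaCl/DEX mice 2 or 3. The Foxo3 call ended without FeSO4/DEX mouse 1 (0.068), NaCl/DEX mice 1 (0.070) or 3 (0.051) or NaCl/PBS mice 1 (0.055) or 2 (0.056), and that of Got1 without FeSO4/DEX mice 1 (0.090) or 3 (0.058), FeSO4/PBS mouse 2 (0.067), NaCl/DEX mice 1 (0.094) or 2 (0.074) or NaCl/PBS mice 1 (0.097) or 2 (0.058), with library size alone (0.053), with the replicate block (0.057) and with limma voom (0.055).

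Amino acid breakdown was represented by 4 negative interactions and 1 positive among 34 genes, beside 3.2% and 2.99% of all tested genes. Besides Tat and Sdsl these were Tdo2, which opens tryptophan breakdown, at -1.35 (SE 0.26, edgeR FDR 0.0068) and Aass, of lysine breakdown, at -1.36 (SE 0.27, edgeR FDR 0.0092). Tdo2 had 16180, 16672 and 19025 normalized counts in NaCl/PBS, 47212, 37175 and 37868 in NaCl/DEX, beside 27068, 24995 and 25927 in FeSO4/PBS and 16378, 26767 and 29097 in FeSO4/DEX. The positive one was Bcat2 at 1.47.

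Lipid droplet and lipolysis genes included 5 negative and 2 positive interactions among 35 (20%), beside 3.2% and 2.99% of all tested genes. The neighbours Plin4 and Plin5, lipid droplet coat proteins 1514 bases apart on chromosome 17, had interaction LFCs of -4.65 (SE 0.71, edgeR FDR 0.0016) and -3.20 (SE 0.27, edgeR FDR 1.5e-05). Plin5 had 331, 641 and 431 normalized counts in NaCl/PBS, 4022, 4927 and 4715 in NaCl/DEX, against 2893, 3329.6 and 3341 in FeSO4/PBS and 3043, 3742 and 3389.9 in FeSO4/DEX, and so remained below NaCl/DEX in FeSO4/PBS. Lpin1, a phosphatidate phosphatase, went from 4952 ± 1369 (SD, n = 3) to 27401 ± 803 in NaCl mice and had 13474 ± 3610.1 and 14682 ± 1632 in FeSO4 mice (interaction LFC -2.34, SE 0.29, edgeR FDR 3.5e-04).

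The fatty acid carrier gene Fabp4 followed at -1.28 (SE 0.25, edgeR FDR 0.0071) and the triglyceride lipase gene Pnpla2 at -0.78. Both positive interactions of the lipolysis list opposed these: G0s2, an inhibitor of that lipase, fell from 479.8, 768 and 526 to 47.2, 177 and 125 after DEX in NaCl mice and had 84.7, 354 and 250.0 without and 255, 469 and 277 with DEX in FeSO4 mice (interaction LFC 2.87, SE 0.65, edgeR FDR 0.017), and Lipe, hormone-sensitive lipase, had 1.30. The count of this list was 12 without FeSO4/PBS mouse 1. Of 20 lipogenesis genes 2 were called, Thrsp at -2.53 and Srebf1 at 1.70, and 4 without FeSO4/PBS mouse 1. Of 26 genes of cholesterol synthesis and uptake 1 was called, Insig2 at -2.63, and 2 without FeSO4/PBS mouse 3. Over all tested genes 6.18% were called.

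The insulin receptor substrate genes, whose products carry the insulin signal into the cell, had positive interactions. Irs2 had 497, 745 and 402 normalized counts in NaCl/PBS, 143, 279 and 117 in NaCl/DEX, compared with 702, 1964 and 1256 in FeSO4/PBS and 2518, 4374 and 2072 in FeSO4/DEX. DEX-treated mice were thus below their controls in NaCl and above them in FeSO4, and the interaction LFC was 2.79 (SE 0.56, edgeR FDR 0.0091). The LFC after DEX in FeSO4 mice alone was 1.19 (edgeR FDR 0.71). Irs1 had an interaction LFC of 1.94 (SE 0.45, edgeR FDR 0.019), called in all leave-one-out fits but those without FeSO4/DEX mouse 3 (0.054), NaCl/DEX mice 1 (0.051) or 3 (0.051) or NaCl/PBS mouse 3 (0.059). Lepr, the leptin receptor, had -2.05 (SE 0.47, edgeR FDR 0.018) and was not called without NaCl/PBS mouse 1 (0.050).

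Among 60 cytochrome P450 genes of families 1 to 4, 4 were called (6.67%, beside 6.18% of all genes), 2 in each direction. Cyp2b10, a drug-metabolising enzyme regulated by the nuclear receptor CAR, had 347, 303 and 286 normalized counts in NaCl/PBS, 9044, 7153 and 8212 in NaCl/DEX, beside 1285, 1002 and 803 in FeSO4/PBS and 562, 1199 and 1014 in FeSO4/DEX. The FeSO4 groups overlapped each other, above NaCl/PBS and below NaCl/DEX, and the interaction LFC was -4.86 (SE 0.34, edgeR FDR 3.4e-06). Alas1, the first enzyme of heme synthesis and chosen after its values were seen, had 8315 ± 1458 (SD, n = 3) in NaCl/PBS, 32610 ± 4169 in NaCl/DEX, against 15613 ± 2829 in FeSO4/PBS and 15247 ± 326 in FeSO4/DEX (interaction LFC -2.01, SE 0.22, edgeR FDR 1.6e-04).

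Cyp3a11 (-0.87, SE 0.23, edgeR FDR 0.036) was not called without FeSO4/DEX mouse 1 (0.065), FeSO4/PBS mouse 2 (0.072), NaCl/DEX mice 1 (0.066) or 3 (0.093) or NaCl/PBS mice 2 (0.067) or 3 (0.083), nor with the replicate block (0.056). Cyp3a41b (5.02, SE 1.33, edgeR FDR 0.040) had 859, 142 and 374 normalized counts in NaCl/PBS, 201, 65.8 and 48.3 in NaCl/DEX, against 17.1, 46.8 and 40.8 in FeSO4/PBS and 619, 16.3 and 118 in FeSO4/DEX. FeSO4/DEX mouse 1 stood far above the others of its group, and without it the interaction LFC was 3.12. The gene was not called without FeSO4/DEX mouse 1 (0.15), FeSO4/PBS mice 1 (0.071), 2 (0.058) or 3 (0.073), NaCl/DEX mice 2 (0.090) or 3 (0.097) or NaCl/PBS mice 1 (0.11) or 3 (0.067), nor with limma voom (0.31). Cyp2d13 had 0.89 (SE 0.18, edgeR FDR 0.0099). These P450 genes have close paralogs and their reads are uncertain. The count of the P450 list was 2 without FeSO4/DEX mouse 1 or FeSO4/PBS mouse 2 or NaCl/DEX mouse 3 or NaCl/PBS mouse 3. Of 26 genes of bile acid synthesis and transport, Slc10a2 (-2.21), Amacr (-0.82), Cyp27a1 (-0.79) and Fgfr4 (0.57) were called, beside 6.18% of all tested genes.

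Phosphatases that shut off MAP kinases made up 4 of 4 called genes among 23 DUSP, Sprouty and Spred genes (17.4%). All 4 had a negative interaction, beside 3.2% of all tested genes. The list as a whole was not shifted that way, with a median of 0.07. Of the 17 tested Dusp genes, 8 had an interaction LFC below 0, called or not, and in NaCl mice DEX raised 5 and lowered 3. Dusp1, a well-known glucocorticoid-induced inhibitor of p38 and JNK, had 215, 738 and 459 normalized counts in NaCl/PBS, 1681, 1974 and 1699.5 in NaCl/DEX, compared with 1857, 2989.8 and 2444 in FeSO4/PBS and 2474, 2233 and 2472 in FeSO4/DEX (interaction LFC -1.95, SE 0.42, edgeR FDR 0.014). The FeSO4/PBS mice overlapped NaCl/DEX, and FeSO4/DEX overlapped FeSO4/PBS. Dusp14 had -3.08 (SE 0.48, edgeR FDR 0.0018) and Dusp4 -1.92 (SE 0.44, edgeR FDR 0.019), which was not called without NaCl/DEX mouse 2 (0.057) or NaCl/PBS mouse 3 (0.060). Dusp8 had -2.83 (SE 0.59, edgeR FDR 0.011). Its NaCl/PBS mice had 2.88, 18.7 and 1.69 normalized counts, and without mouse 2 of that group the LFC was -4.43. With library size alone the list held 4 negative calls and 1 positive call.

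Of 24 AP-1 and immediate-early genes, MAF genes among them, 3 were called (12.5%, beside 6.18% of all tested genes). The interaction was positive for 1 and negative for 2. Junb, an AP-1 subunit, had 872, 2096 and 713 normalized counts in NaCl/PBS, 98.8, 144 and 128 in NaCl/DEX, beside 6488, 6004 and 4152 in FeSO4/PBS and 4744, 6044 and 3975 in FeSO4/DEX. The NaCl/DEX mice lay below all others, and the FeSO4 groups overlapped above NaCl/PBS (interaction LFC 3.13, SE 0.47, edgeR FDR 0.0015). The small MAF gene Maff had -1.96 (SE 0.38, edgeR FDR 0.0078).

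Growth arrest genes also moved both ways, beside 3.2% negative and 2.99% positive interactions over all tested genes. Among 25 p53 targets 4 had a negative and 2 a positive interaction (24%), and among 22 G1 cyclins, CDK inhibitors and growth arrest genes 3 and 2. Besides Cdkn1a and Ddit4, the negative ones were Trp53inp1 (-1.58), Ei24 (-0.66), Gadd45b and Gadd45g (-2.87). The positive ones were Gadd45a (2.09, SE 0.42, edgeR FDR 0.0087), the kinase gene Plk2 (1.68, SE 0.32, edgeR FDR 0.0074) and Mycl (1.72, SE 0.38, edgeR FDR 0.016). Gadd45a and Gadd45b, members of a single family, thus stood on opposite sides: in NaCl mice Gadd45a went from 127, 189 and 60.9 to 41.9, 32.9 and 46.3 and Gadd45b from 48.2, 84.2 and 41.5 to 1181, 1156 and 1163. Bcl2l1, which encodes the survival protein BCL-xL and was named after its values were seen, had 528, 558 and 560.3 normalized counts in NaCl/PBS, 3384, 3405 and 3522 in NaCl/DEX, against 3204, 4604 and 3160.2 in FeSO4/PBS and 3372, 3360.3 and 4036 in FeSO4/DEX (interaction LFC -2.67, SE 0.20, edgeR FDR 5.5e-06).

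Genes of cytokine signalling were called in 7 of 25 cases (28.0%, beside 6.18% of all tested genes), 4 with a positive and 3 with a negative interaction. The negative ones were Il1rn (-2.23, SE 0.46, edgeR FDR 0.011), which encodes the IL-1 receptor antagonist, Il1r1 (-1.75) and Il6ra (-1.1, SE 0.18, edgeR FDR 0.0022), the IL-6 receptor. Il1rn had 145, 235 and 131 normalized counts in NaCl/PBS, 435, 299 and 487 in NaCl/DEX, compared with 289, 366 and 238 in FeSO4/PBS and 105, 256 and 103 in FeSO4/DEX.

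On the positive side stood Socs3, a feedback inhibitor of IL-6 signalling, which fell from 193, 942 and 239 to 39.7, 73.3 and 49.3 normalized counts after DEX in NaCl mice and had 4442, 4277 and 3732 without and 3798, 4468 and 2266 with DEX in FeSO4 mice (interaction LFC 2.82, SE 0.68, edgeR FDR 0.025). On the linear scale the sign of Socs3 turned, where the change of the mean after DEX in FeSO4 mice minus that in NaCl mice was -236 normalized counts. Its call ended without FeSO4/DEX mice 1 (0.051) or 2 (0.058), FeSO4/PBS mouse 3 (0.056) or NaCl/DEX mice 1 (0.070) or 3 (0.069), and with limma voom (0.14). Without NaCl/PBS mouse 2, the highest of its group, the LFC of Socs3 was 1.72 and still called. Il1b, interleukin-1 beta, was at or under 3 reads in every NaCl/DEX library, at least 30.7-fold below NaCl/PBS (36.0, 212 and 29.6), and had 97.8, 127 and 90.5 normalized counts without and 42.5, 77.5 and 42.8 with DEX in FeSO4 mice. The bound was 10.9-fold without NaCl/PBS mouse 2. All FeSO4/DEX mice lay below all FeSO4/PBS mice for Il1b too (LFC after DEX -0.97, edgeR FDR 0.80). That interaction (edgeR FDR 0.034) was not called without FeSO4/DEX mice 2 (0.070) or 3 (0.054), FeSO4/PBS mouse 3 (0.062) or NaCl/DEX mice 1 (0.078), 2 (0.069) or 3 (0.099), nor with limma voom (0.2). Stat2 had 1.02 (SE 0.20, edgeR FDR 0.0082) and Stat5a 1.38 (SE 0.27, edgeR FDR 0.0086).

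Among 41 interferon-stimulated genes, 3 had a positive and 1 a negative interaction, beside 2.99% and 3.2% of all tested genes. The list median was 0.48. In NaCl mice DEX lowered 15 and raised 1 of the 41, beside 7.15% and 6.5% of all tested genes. Irf1, a transcription factor induced by interferon, had 934, 1060.4 and 781 normalized counts in NaCl/PBS, 142, 135 and 144 in NaCl/DEX, beside 341, 211 and 205 in FeSO4/PBS and 127, 171 and 124 in FeSO4/DEX (interaction LFC 1.87, SE 0.28, edgeR FDR 0.0015). Irf1 was one of the 13 positive calls whose FeSO4/DEX mice all lay below the FeSO4/PBS mice. Its LFC after DEX was -0.85 (edgeR FDR 0.63) in FeSO4 mice and -2.72 in NaCl mice. The peptide transporter gene Tap1 had an interaction LFC of 1.31 (SE 0.19, edgeR FDR 0.0013), with both FeSO4 groups below NaCl/PBS, and Stat2 was the third. The negative call was Usp18, which removes ISG15 from proteins, at -1.27 (SE 0.25, edgeR FDR 0.0077).

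NF-kB genes gave 1 call each way among 20. Over all tested genes 6.18% were called, 2.99% positive and 3.2% negative, and the chemokine and acute-phase counts below lie near the 6.18%. Nfkbia, the NF-kB inhibitor, had -0.96 (SE 0.22, edgeR FDR 0.020), lost without FeSO4/DEX mouse 1 (0.051) or NaCl/PBS mice 1 (0.059) or 3 (0.056), and Relb, a subunit, 1.89 (SE 0.45, edgeR FDR 0.023), lost without FeSO4/DEX mouse 1 (0.059), FeSO4/PBS mouse 3 (0.052) or NaCl/DEX mice 1 (0.066) or 3 (0.060) and with limma voom (0.053). Of 18 chemokine genes, Cxcl11 was called (2.7, SE 0.72, edgeR FDR 0.040), which ended without FeSO4/DEX mice 2 (0.13) or 3 (0.12), FeSO4/PBS mice 2 (0.057) or 3 (0.081), NaCl/DEX mice 2 (0.089) or 3 (0.091) or NaCl/PBS mice 1 (0.080), 2 (0.066) or 3 (0.081), with the replicate block (0.069) and with limma voom (0.18). The DESeq2 test called 6 chemokine genes, 5 of them positive. Acute-phase genes gave 2 negative calls of 29 (Lcn2 and Serpina3m, list median -0.55), and the count was 0 without NaCl/PBS mouse 1, 1 without FeSO4/DEX mouse 3 or NaCl/PBS mouse 3 and came to 7 without NaCl/PBS mouse 2. No MHC gene (0 of 23) or complement gene (0 of 29) was called by edgeR, with list medians of 0.29 and 0.14. An unadjusted p under 0.05 was found for 2 and 3 of them, DESeq2 called 1 and 0, and limma voom called neither list's genes. The neutrophil and Kupffer cell marker sums given above differ between the NaCl and FeSO4 mice, the neutrophil sums were lower after DEX in FeSO4 mice, and the 7 tested neutrophil markers had a median interaction LFC of 0.77 (median LFC after DEX -0.97 in NaCl and -0.36 in FeSO4 mice). Their part in these immune gene results was not tested. Of the 7 tested neutrophil markers and the 11 Kupffer cell markers, 0 had a called interaction by edgeR, DESeq2 or limma voom, and 2 and 0 had an unadjusted p under 0.05.

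**Figure D4:**
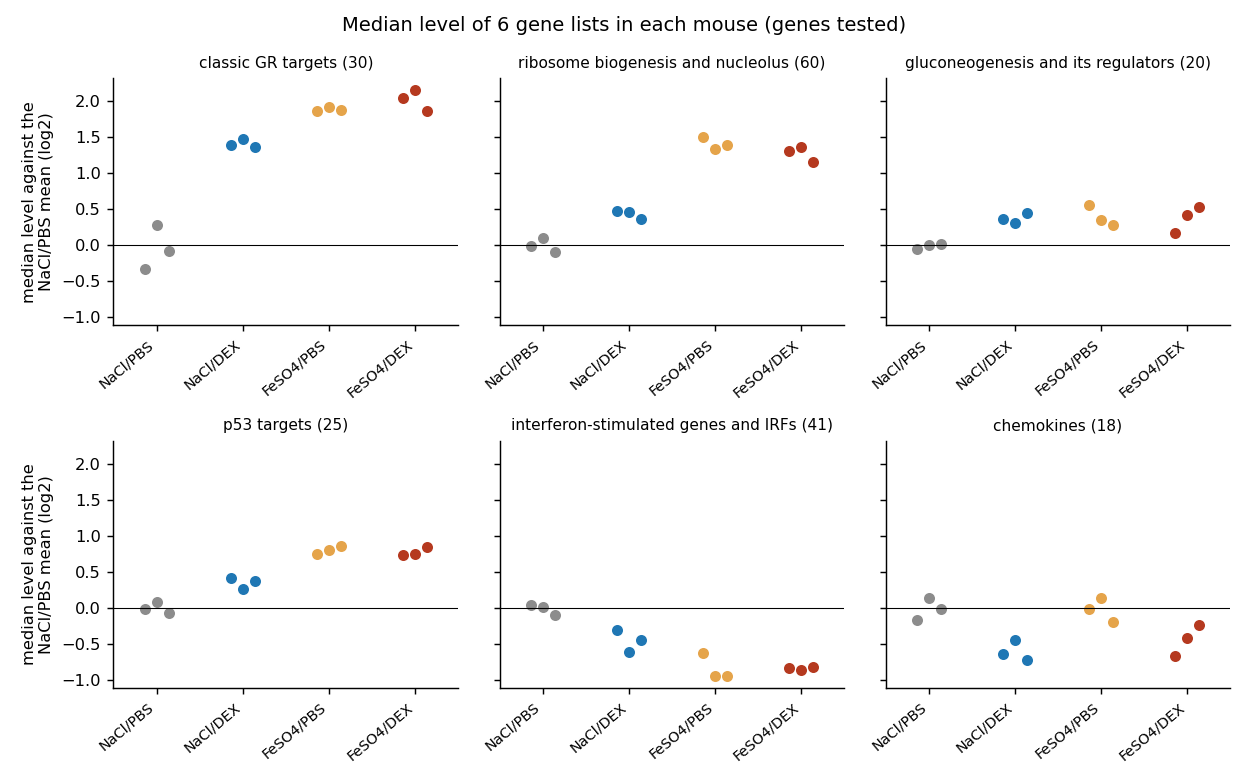
Median level of 6 gene lists (classic GR targets, ribosome biogenesis, gluconeogenesis, p53 targets, interferon-stimulated genes and chemokines) in each mouse, on the log2 scale relative to the NaCl/PBS mean. The classic GR targets stand at 1.36 to 1.48 in NaCl/DEX, 1.87 to 1.92 in FeSO4/PBS and 1.87 to 2.16 in FeSO4/DEX.

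Several other genes with strong positive interactions fell after DEX in NaCl mice. Efna1, an ephrin ligand, had 672, 751 and 380.1 normalized counts in NaCl/PBS, 56.9, 63.0 and 38.3 in NaCl/DEX, against 1873, 2956 and 2452 in FeSO4/PBS and 3433, 6105 and 2785 in FeSO4/DEX (interaction LFC 4.26, SE 0.45, edgeR FDR 1.1e-04). Tnfaip2, a TNF-induced gene, fell from 509, 611 and 443 to 68.7, 58.3 and 57.4 after DEX in NaCl mice and had 365, 276 and 318 without and 349.9, 249 and 253 with DEX in FeSO4 mice (interaction LFC 2.92, SE 0.25, edgeR FDR 1.8e-05). The ubiquitin ligase genes Rnf152 (2.87, SE 0.27, edgeR FDR 4.2e-05), Neurl3 (3.11, SE 0.59, edgeR FDR 0.0066) and Rnf186 (2.78, SE 0.55, edgeR FDR 0.0080) had lower values in FeSO4/PBS than in NaCl/PBS. Mup-ps16, a pseudogene of the major urinary proteins with uncertain reads, had 3.38 (SE 0.92, edgeR FDR 0.044), and its call ended without FeSO4/DEX mice 1 (0.054) or 3 (0.24), FeSO4/PBS mice 1 (0.065), 2 (0.061) or 3 (0.085), NaCl/DEX mice 2 (0.075) or 3 (0.096) or NaCl/PBS mice 1 (0.096) or 3 (0.10), and with limma voom (0.2).

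The circadian clock and the hepatocyte transcription factors both held called genes. Of 23 clock genes, 4 had a positive and 1 a negative interaction (21.7%, beside 6.18% of all tested genes). Nr1d1, the clock repressor REV-ERB alpha, had 1900.3, 1058 and 1854 normalized counts in NaCl/PBS, 148, 412 and 272 in NaCl/DEX, compared with 1183, 2260.4 and 2625 in FeSO4/PBS and 1884, 2269 and 1775 in FeSO4/DEX (interaction LFC 2.49, SE 0.47, edgeR FDR 0.0068). Dbp (1.66) and Bhlhe40 (1.5, SE 0.27, edgeR FDR 0.0048) were also positive, and Ciart (-1.58, SE 0.27, edgeR FDR 0.0030) negative.

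Among 17 C/EBP and hepatocyte transcription factor genes 5 were called (29.4%, beside 6.18% of all tested genes), 4 with a positive and 1 with a negative interaction. Cebpb, the isoform associated with acute responses, had -1.1 (SE 0.23, edgeR FDR 0.011), and Cebpa (0.66, SE 0.16, edgeR FDR 0.026), Onecut2 (0.84, SE 0.18, edgeR FDR 0.014) and Gata4 (1.40) were among the positive ones. Cebpb had 955, 1366 and 1064 normalized counts in NaCl/PBS, 2685, 2789.6 and 2828 in NaCl/DEX, beside 4857, 4591 and 4889.6 in FeSO4/PBS and 4568, 7041 and 4770.4 in FeSO4/DEX, so that FeSO4/PBS stood above NaCl/DEX. The count of the list was 3 without FeSO4/DEX mice 2 or 3 or NaCl/DEX mice 1, 2 or 3 or NaCl/PBS mice 1 or 3. Cebpa was not called without FeSO4/DEX mice 2 (0.075) or 3 (0.076), FeSO4/PBS mouse 2 (0.057), NaCl/DEX mice 1 (0.067), 2 (0.055) or 3 (0.062) or NaCl/PBS mice 1 (0.078) or 3 (0.092).

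Iron genes gave 5 calls among 28 (17.9%, beside 6.18% of all tested genes). Besides Lcn2, Tfrc, the transferrin receptor, had 351, 324 and 271 normalized counts in NaCl/PBS, 1422, 668 and 1043 in NaCl/DEX, against 476, 847 and 811 in FeSO4/PBS and 852, 833 and 761 in FeSO4/DEX (interaction LFC -1.53, SE 0.35, edgeR FDR 0.017), and was not called without NaCl/PBS mouse 3 (0.050). Slc39a14, an importer of iron not bound to transferrin, had -0.91 (SE 0.25, edgeR FDR 0.043) and was not called without FeSO4/DEX mice 1 (0.095) or 3 (0.089), FeSO4/PBS mice 2 (0.062) or 3 (0.064), NaCl/DEX mice 1 (0.10) or 3 (0.082) or NaCl/PBS mice 1 (0.11) or 3 (0.11), nor with library size alone or limma voom (0.054 each). For Slc39a14 the NaCl groups overlapped (LFC after DEX 0.53, edgeR FDR 0.060), and FeSO4/DEX lay wholly below FeSO4/PBS (LFC after DEX -0.38, edgeR FDR 0.76). Hjv, the BMP co-receptor that controls hepcidin, had an interaction LFC of 0.85 (SE 0.17, edgeR FDR 0.0097) and Smad6, an inhibitor of that pathway, 1.38. The count of the iron list was 1 without NaCl/PBS mouse 3, 2 without FeSO4/DEX mouse 3 or NaCl/DEX mouse 1 or NaCl/PBS mouse 1 and came to 3 without FeSO4/DEX mouse 1 or NaCl/DEX mouse 3.

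**Figure D5:**
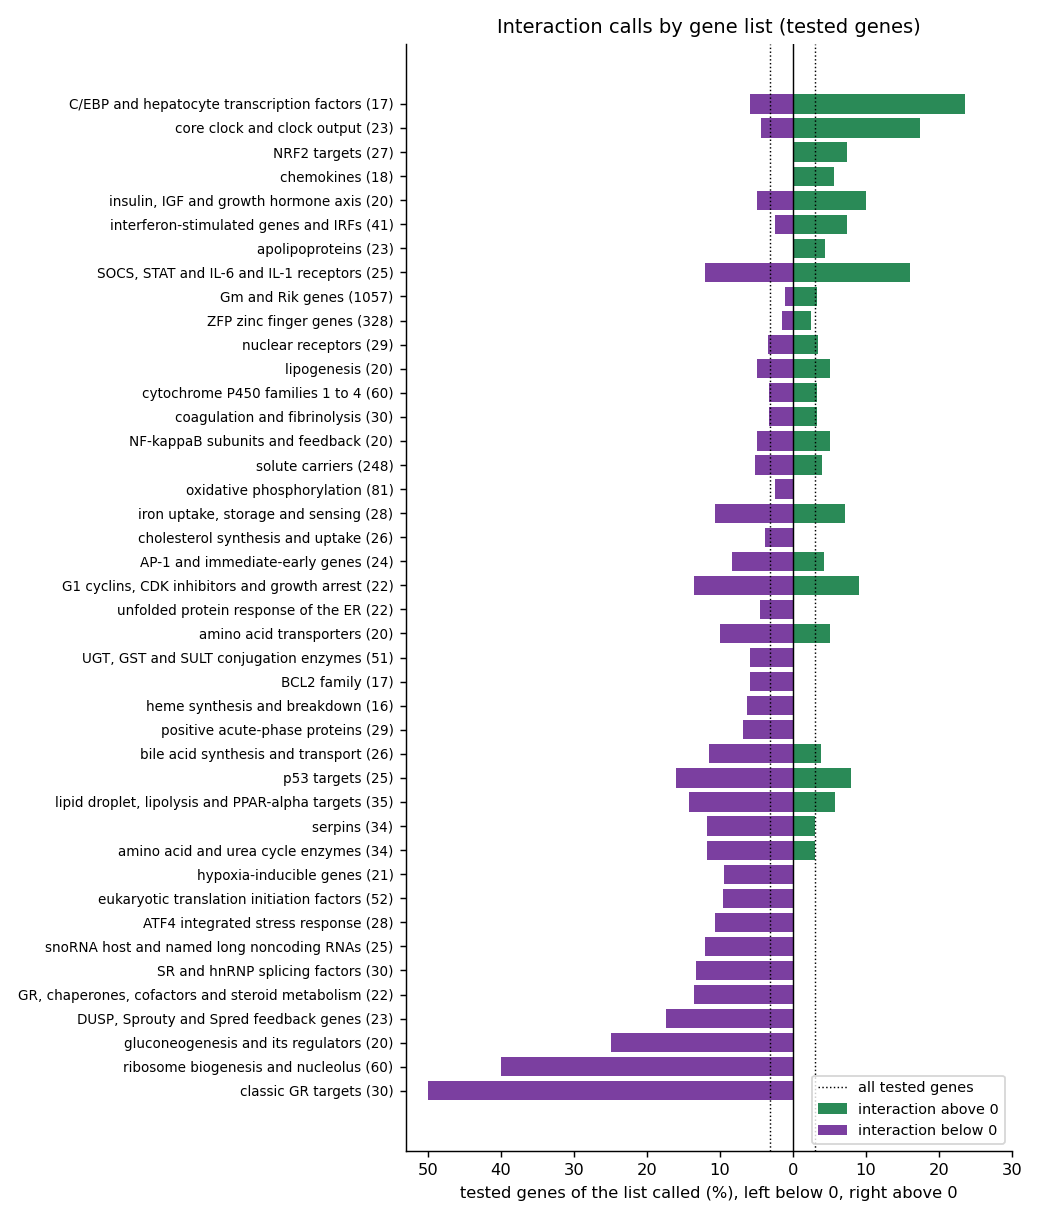
Percent of tested genes with a called interaction (horizontal axis, negative to the left and positive to the right) in 42 gene lists of at least 15 tested genes and at least 1 call, beside 3.2% negative and 2.99% positive over all tested genes. The classic GR targets (50%) and ribosome biogenesis (40%) stand at the bottom.

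Grouped by the letters with which their symbols begin, 98 families had 15 or more tested genes. Over all tested genes 6.18% were called, 2.99% positive and 3.2% negative. The highest shares of calls were those of the Pik genes with 4 of 16 (25.0%, 2 in each direction), the Dusp genes with 4 of 17 (23.5%), the Serpina genes with 5 of 22 (22.7%, all negative) and the Snhg genes with 3 of 15 (20%, all negative). Serpina genes sit in clusters of near-identical copies, so their reads are uncertain. In the wider serpin list 5 of 34 were called, and 3 without NaCl/PBS mice 1 or 3. Solute carriers had 13 negative and 10 positive interactions among 248 (9.27%), and the LFCs of these 23 called genes ran from -3.98 for Slc10a6 to 1.33 for Slc15a3. Zinc finger genes of the ZFP group had 13 calls among 328 (3.96%), and the count was 7 without NaCl/DEX mouse 1 and came to 8 without NaCl/DEX mouse 3 or NaCl/PBS mice 1 or 3. Unnamed Gm and Rik genes had 47 calls among 1057 (4.45%), 35 of them positive. This share and that of the ZFP group were under the 6.18% of all tested genes. The Gm and Rik count was 25 without NaCl/PBS mouse 1 and 27 without NaCl/PBS mouse 3. It was 28 without NaCl/DEX mouse 3 and came to 30 without NaCl/DEX mouse 1. Heat shock proteins had 0 calls among 22 by edgeR and by limma voom, yet 11 had an unadjusted p under 0.05 and DESeq2 called 7, with a list median of -0.33. The proteasome (48 tested), autophagy and lysosome genes (32) and collagens (26) had 0 calls by edgeR and limma voom, 1, 3 and 4 unadjusted p under 0.05, and 0, 0 and 2 calls by DESeq2.

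Other single members of larger lists had large interactions. The vitamin D receptor gene Vdr had -3.11 and the retinoic acid receptor gene Rara 1.66 among 29 nuclear receptors, while Thbd, thrombomodulin, had -2.29 and F3, tissue factor, 1.93 among 30 coagulation genes. Each of these 2 lists held 2 calls, near the 6.18% of all tested genes. In the nuclear receptor list the count was 1 without NaCl/PBS mouse 1 and came to 5 without FeSO4/PBS mouse 1, and in the coagulation list 1 without NaCl/DEX mice 1 or 3. Pfkfb3, which stimulates glycolysis, had -2.33. Mical3, an actin-oxidising enzyme (-2.47, SE 0.17, edgeR FDR 3.4e-06), and Rbbp8, a DNA end-resection factor (-3.09, SE 0.22, edgeR FDR 3.4e-06), were named after their values were seen, for their small SE.

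Finally, 6 genes called by DEX in NaCl mice beyond an LFC of 1 in size were taken for the smallest interaction. Inhbe, a hepatokine of the activin family, had 720.0, 1455 and 839 normalized counts in NaCl/PBS, 118, 359 and 196 in NaCl/DEX, compared with 881, 209.6 and 552 in FeSO4/PBS and 159, 133 and 76.1 in FeSO4/DEX. Klf10, a TGF-beta-induced transcription factor, fell from 574, 1151 and 728 to 126, 313 and 248 after DEX in NaCl mice and had 2562, 4249 and 4507 without and 1452, 1532 and 1183 with DEX in FeSO4 mice. In both genes, and in Ptp4a1, Arl4d and Spata2l, the DEX-treated mice were separated from their controls in NaCl and in FeSO4 mice alike. The genes were chosen for a called response in NaCl mice and a small interaction, so this separation partly follows from the choice. Over all tested genes, NaCl/DEX lay wholly above NaCl/PBS in 17.6% and wholly below in 20.3%. For FeSO4/DEX against FeSO4/PBS the shares were 4.45% and 4.85%. The LFC after DEX in FeSO4 mice was -2.15 (edgeR FDR 0.58) for Inhbe, -1.44 (edgeR FDR 0.41) for Klf10, 1.08 (edgeR FDR 0.71) for Ptp4a1, 1.34 (edgeR FDR 0.70) for Arl4d and 0.83 (edgeR FDR 0.73) for Spata2l. None was called, and the interaction LFCs were 0.00 (SE 0.86, edgeR FDR 1.0), 0.39 (SE 0.43, edgeR FDR 0.66), -0.18 (SE 0.50, edgeR FDR 0.88), -0.27 (SE 0.47, edgeR FDR 0.79) and -0.29 (SE 0.41, edgeR FDR 0.74). An interaction that was not called does not show an equal response, since the SE of Inhbe alone was 0.86. Zfp825, the sixth, overlapped between the FeSO4 groups (interaction LFC 0.44, SE 0.48, edgeR FDR 0.66). Per1, a clock gene often used as a GR target and named after its values were seen, showed no called response to DEX in either arm, at -0.02 (edgeR FDR 0.96) in NaCl and -0.08 (edgeR FDR 0.95) in FeSO4 mice.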

How the data were processed

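RNA was measured by single-end mRNA sequencing in 12 mouse livers. According to the study's methods and processing notes, the authors checked reads with FastQC, mapped them with STAR 2.7.10b to mm39 with GENCODE splice junctions and counted reads per gene with STAR, and the deposited values are these raw counts, not normalized. Which strand column was taken is not given in the sources used here, so overlapping and antisense genes are uncertain. Symbols and positions came from GENCODE vM39 on GRCm39 (54749 of 55414 genes matched, 665 without a symbol). Of all genes, 30401 had no count in any library.

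The 12 columns were grouped by their labels and fitted in edgeR 4.0.16 (R 4.3.3) with 1 mean per group, filterByExpr, TMM factors and the quasi-likelihood test, called at an FDR of 0.05 or less. Normalized counts are counts divided by the TMM-scaled library size relative to the mean library size. Alternatives were DESeq2 1.42.0, limma 3.58.1 voom with a weight per group, other scalings, filters and minimum changes, a replicate block and leaving out each mouse. The code was tested on simulated data. Mice are the replicates, and all replicate pairs differed by more than sampling noise (chi-square per gene 18.3 to 89.5). Each DEX comparison is one side of the interaction, so the comparisons share mice and are not independent.

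Gene lists (53 in all, and 12 marker lists) and the members were chosen with earlier results of these data known, and each list is described by its counts and median beside all tested genes, without a set test. Named genes are the 12 most positive and the 12 most negative called interactions with an LFC beyond 1 in size and a mean of at least 100 normalized counts in the highest group (no Gm or Rik genes), the 4 called members of each described list with the smallest p, the genes the study shows as GR-responsive with Nr3c1, and the 6 DEX-called genes with the smallest interaction. Further called members of the lists are given by LFC alone and were added after their values were seen, as were Mical3, Rbbp8, Bcl2l1, Alas1 and Per1. A few called genes and 1 promoter window that these rules select are not reported here. Figures were drawn with Python 3.11.15 and matplotlib 3.10.9.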

Additional observations from a re-analysis of the deposited data

Results flagged for a closer look

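The LFC after DEX differed between NaCl and FeSO4 mice by the test of the difference itself, the edgeR interaction, for 443 genes in the negative and 414 in the positive direction. The named genes among them are given here with their interaction LFC. No explanation was weighed for any of them.

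Negative interactions beyond an LFC of 3 in size were those of Fam107a (-9.08), Cdkn1a (-5.44), Serpina4-ps1 (-5.17), Cyp2b10 (-4.86), Plin4 (-4.65), Phf11c (-4.48), Slc10a6 (-3.98), Mdm1 (-3.97), Akr1b7 (-3.79), Setdb2 (-3.64), Ddit4 (-3.55), Plin5 (-3.20), Rbbp8 (-3.09), Dusp14 (-3.08) and Gadd45b (-3.07). Between 2 and 3 in size stood Lcn2 (-2.84), Dusp8 (-2.83), Bcl2l1 (-2.67), Mical3 (-2.47), Fkbp5 (-2.43), Lpin1 (-2.34), Il1rn (-2.23), Tat (-2.20), Lepr (-2.05) and Alas1 (-2.01). Between 1 and 2 in size stood Maff (-1.96), Dusp1 (-1.95), Dusp4 (-1.92), Sgk1 (-1.72), Sdsl (-1.61), Ciart (-1.58), Tfrc (-1.53), Tsc22d3 (-1.44), Nop56 (-1.38), Aass (-1.36), Tdo2 (-1.35), Mphosph10 (-1.33), Ppan (-1.33), Got1 (-1.31), Fabp4 (-1.28), Usp18 (-1.27), Mak16 (-1.22), Cebpb (-1.1), Il6ra (-1.1), Foxo1 (-1.02), Serpina3m (-1.01) and Foxo3 (-1.0). Under 1 in size stood Ep300 (-0.98), Nfkbia (-0.96), Slc39a14 (-0.91), Cyp3a11 (-0.87) and Med1 (-0.70).

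Positive interactions beyond an LFC of 3 were those of Cyp3a41b (5.02), Efna1 (4.26), Mup-ps16 (3.38), Junb (3.13) and Neurl3 (3.11). Between 2 and 3 stood Tnfaip2 (2.92), G0s2 (2.87), Rnf152 (2.87), Socs3 (2.82), Irs2 (2.79), Rnf186 (2.78), Cxcl11 (2.7), Nr1d1 (2.49) and Gadd45a (2.09). Between 1 and 2 stood Irs1 (1.94), Relb (1.89), Irf1 (1.87), Mycl (1.72), Plk2 (1.68), Bhlhe40 (1.5), Stat5a (1.38), Tap1 (1.31) and Stat2 (1.02). Under 1 stood Cyp2d13 (0.89), Hjv (0.85), Onecut2 (0.84) and Cebpa (0.66).

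The interactions of Greb1 (negative, edgeR FDR 0.042) and Il1b (positive, edgeR FDR 0.034) are given without an LFC, since whole groups were at or under 3 reads.

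Groups of 3 mice are too small for a test of single outlying mice, and all deposited count columns were used in the comparisons.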

How the results depend on the processing

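Counts of called genes moved with the processing. For the interaction, 857 calls (414 positive and 443 negative) became 1309 with DESeq2 (747 negative), 1459 with no filter on low counts (683 and 776), 72 when tested against an LFC of 1 (21 and 51), with 277 negative calls beyond that size. With 1 mouse left out they ran from 537 to 1018 in all, from 229 to 408 positive and from 308 to 628 negative. The DEX response in NaCl mice (1892 genes) became 2929 with limma voom, 198 when tested against an LFC of 1, 884 beyond it, and 1187 to 2543 with 1 mouse left out. The count of 0 for DEX in FeSO4 mice became 10 with DESeq2, 170 with no filter on low counts, and 0 to 1 with 1 mouse left out. The cause of these shifts was not tested. DESeq2 called 854 of the 857 (99.6%). The interaction of Gadd45b turned to 1166 and that of Socs3 to -236 normalized counts on the linear scale, against -3.07 and 2.82 on the log2 scale. With the replicate number as a block, 729 genes were called (340 positive and 389 negative), 695 of them shared with the unblocked fit. The labels do not say whether a number marks a shared litter, batch or day. Same-numbered mice deviated together with a correlation over 0.1 in 3 of 18 pairs (-0.16 to 0.22), which cannot settle it. Over the named genes, 116 results lost the call and 1 gained it (Zfp825 without FeSO4/PBS mouse 1, edgeR FDR 0.023). A further 1653 were counted as unchanged. These include linear-scale values, which have no FDR, and genes without a call whose direction could turn. The LFC of Arl4d, for instance, ran from -0.63 to 0.25 with 1 mouse left out. Of the list medians 799 moved by less than the spread between mice and 111 by more. The recount of calls per list was chosen after seeing the data. Of 46 lists with a call, the count moved by over 1.5 times in 10 by DESeq2, 9 with library size alone, 5 with the replicate block, 3 with limma voom, 3 with at least 10 counts in every library and 29 with no filter on low counts. DESeq2 gave 6 for acute-phase proteins and for hypoxia-inducible genes (2 each), 5 for the insulin axis (3), 4 for nuclear receptors (2) and for the BCL2 family (1), and 23 for zinc finger genes (13). Gluconeogenesis went from 5 to 3 with library size alone and with the block, and the interferon-stimulated genes from 4 to 7 with library size alone. With at least 10 counts in every library, serpins went from 5 to 2 and Gm and Rik genes from 47 to 27, and limma voom gave 28 for Gm and Rik genes and 8 for zinc finger genes. The bounds of Greb1 and Il1b and the group overlaps without 1 mouse were also added after seeing the data. With 3 mice a group at this depth, no interaction under 0.45 in size was called by edgeR.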
